A study of Mus musculus with 56 samples.

Results

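Immediate-early-high microglia are the cells of each cortical library in which 7 immediate early genes, Fos, Fosb, Egr1, Atf3, Jun, Ier2 and Dusp1, took the largest share of transcripts. Transcripts were counted as unique molecular identifiers (UMIs), 1 per captured molecule. Eligible cells had at least 500 detected genes, under 10% of UMIs in mitochondrially encoded genes, at least 1 UMI of C1qa and under 8 UMIs summed over the border-macrophage genes Pf4, Lyve1, F13a1, Ms4a7, Cbr2 and Cd163. The 10% of eligible cells with the highest share in each library made up the group, 1469 of 14676 eligible cells and of 15507 deposited barcodes. They were set against the 50% of eligible cells with the lowest share in the same library, 7335 low-score cells.

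All cells came from the cortex of mice on the B6 background and were profiled by droplet-based 3′ single-cell RNA sequencing in 8 libraries. Per the series' design text the cells were CD45int CD11bint; the labels describe papain digestion, a Percoll gradient and CD11b beads, steps that take time outside the animal. The 4 groups, with 2 libraries each, were wild type at postnatal day 28 (P28), wild type at postnatal day 9 (P9), ST2 KO at P9 and ST2 Het at P9. ST2, encoded by Il1rl1, is the receptor of the cytokine IL-33. The ST2 Het littermates were the controls of the ST2 KO mice. The labels do not say whether the 2 libraries of a group came from separate animals, so p-values cannot be taken to measure a spread between animals. The edgeR tests below moderate the spread of each gene between libraries toward a trend over all genes tested. Their p-values and standard errors therefore rest partly on that shared spread, and not only on the few libraries of a group. The titles carry one date for the wild-type libraries and another for the ST2 libraries. No test compares these sets, since date and set cannot be told apart, and values of all 4 groups stand side by side as a description.

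Immediate early genes are transcribed within minutes of a stimulus from transcription factors that are already in the cell, such as CREB and serum response factor, and need no new protein synthesis. Fos, Fosb, Jun and Atf3 encode subunits of AP-1-type transcription factors, Egr1 encodes a zinc finger transcription factor, Dusp1 encodes a phosphatase that switches off mitogen-activated protein kinases, and Ier2 encodes a nuclear protein. In microglia, the resident macrophages of the brain, these genes respond to injury and cytokines, and they are also known to be induced by warm enzymatic dissociation of tissue. These libraries hold no sample that separates a state present in the animal from one acquired during cell isolation, so the 2 cannot be told apart.

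The promoters of the genes that define or accompany the state are shown because they hold short motifs of known stimulus-responsive factors. The sequences are from RefSeq on GRCm38.p6 and run 5′ to 3′ over the 250 bases before the annotated start of transcription. Capitals mark matches on either strand to 7 motifs, the cAMP response element TGACGTCA and its core TGACG, the AP-1 site TGANTCA, the CArG box, the kappaB site, the EGR site GCGNGGGCG and the heat shock element GAANNTTC. The full cAMP response element contains the core. The Fos window lies at chr12:85473640-85473889 (plus strand), Fosb at chr7:19310046-19310295 (minus strand), Atf3 at chr1:191183334-191183583 (minus strand), Dusp1 at chr17:26508473-26508722 (minus strand), Nfkbia at chr12:55492648-55492897 (minus strand) and Hspa1a at chr17:34972157-34972406 (minus strand).
Fos: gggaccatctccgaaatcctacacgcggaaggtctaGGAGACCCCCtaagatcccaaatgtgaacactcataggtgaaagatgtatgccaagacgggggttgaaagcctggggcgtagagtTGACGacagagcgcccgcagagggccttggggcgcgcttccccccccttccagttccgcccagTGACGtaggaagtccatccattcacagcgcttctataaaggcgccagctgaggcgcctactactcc
Fosb: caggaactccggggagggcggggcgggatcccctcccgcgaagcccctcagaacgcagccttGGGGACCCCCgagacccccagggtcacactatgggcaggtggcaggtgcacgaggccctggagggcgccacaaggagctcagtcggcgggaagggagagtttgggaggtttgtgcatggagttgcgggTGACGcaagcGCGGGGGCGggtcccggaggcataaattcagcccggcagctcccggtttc
Atf3: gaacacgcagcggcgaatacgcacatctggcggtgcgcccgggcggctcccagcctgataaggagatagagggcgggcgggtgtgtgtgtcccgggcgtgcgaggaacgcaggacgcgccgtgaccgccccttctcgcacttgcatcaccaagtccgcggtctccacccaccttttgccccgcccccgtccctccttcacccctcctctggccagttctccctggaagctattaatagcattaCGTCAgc
Dusp1: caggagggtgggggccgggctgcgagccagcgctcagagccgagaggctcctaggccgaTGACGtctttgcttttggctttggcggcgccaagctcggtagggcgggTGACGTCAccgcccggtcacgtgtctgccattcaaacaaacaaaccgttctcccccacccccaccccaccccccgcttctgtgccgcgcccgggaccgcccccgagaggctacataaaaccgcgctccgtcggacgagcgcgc
Nfkbia: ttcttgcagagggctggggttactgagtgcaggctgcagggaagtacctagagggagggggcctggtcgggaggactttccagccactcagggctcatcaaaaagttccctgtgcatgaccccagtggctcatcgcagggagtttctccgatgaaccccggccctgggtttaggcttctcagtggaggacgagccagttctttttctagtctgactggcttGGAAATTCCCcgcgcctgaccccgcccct
Hspa1a: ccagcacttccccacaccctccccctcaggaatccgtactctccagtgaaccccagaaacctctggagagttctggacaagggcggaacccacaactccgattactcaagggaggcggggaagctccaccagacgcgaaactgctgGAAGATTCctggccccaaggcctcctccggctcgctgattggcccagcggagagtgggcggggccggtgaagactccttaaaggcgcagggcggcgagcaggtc
RefSeq entries were matched for 5 of the 7 score genes; Egr1 and Ier2 are named only. Over windows of 300 bases that include 50 bases after the start, TGACG occurred in 4 of these 5, against 32.7% of the promoters of all genes tested. The AP-1 site and the CArG box each occurred in 0 of the 5, against 4.86% and 1.27%. Bases outside these windows and variants of the motifs were not searched, so a count of 0 does not show that a gene lacks such sites. Counted from the start, the core in Fos began at positions -129 and -66, and the full element in Dusp1 at -143. Nfkbia, an inhibitor of NF-kB, held a kappaB site at -29, and Hspa1a, an inducible chaperone, a heat shock element at -104. The kappaB site occurred in 57.1% of 14 promoters, from 9 NF-kB feedback genes that rose at least 2-fold in the comparison below. Its share among promoters of tested genes was 5.04%. The heat shock element occurred in 45.5% of 11 promoters, from 7 heat shock genes that rose at least 2-fold, against 5.89%. Listed genes that did not rise were not set beside them, so these shares do not separate a rise from membership of the list. These matches describe letters and show no binding.

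The score was far higher in a small tail of cells than in the rest, and the size of the tail differed between groups. Over all eligible cells the 7 genes took 0.0618% and 0.0610% of UMIs in P28 wild-type libraries, 0.102% and 0.111% in P9 wild-type libraries, 0.128% and 0.121% in ST2 KO libraries and 0.167% and 0.188% in ST2 Het libraries. Within the chosen cells the share was 0.462% and 0.460% at P28, 0.717% and 0.818% in P9 wild type, 0.823% and 0.672% in ST2 KO and 1.03% and 1.01% in ST2 Het. Over all eligible cells both P28 libraries lay below both P9 wild-type libraries, and both ST2 KO libraries below both ST2 Het libraries. With each cell thinned to 1000 UMIs the shares were 0.0522% and 0.0513% at P28 against 0.0948% and 0.108% in P9 wild type, and 0.124% and 0.102% in ST2 KO against 0.161% and 0.168% in ST2 Het. Without dividing cells they were 0.0569% and 0.0602% at P28 against 0.133% and 0.135% in P9 wild type, while ST2 KO, with 0.197% and 0.107%, overlapped ST2 Het, with 0.191% and 0.170%. These shares chose the cells and are given as a description, since 2 libraries against 2 cannot reach an exact p of 0.05.

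**Figure D1:**
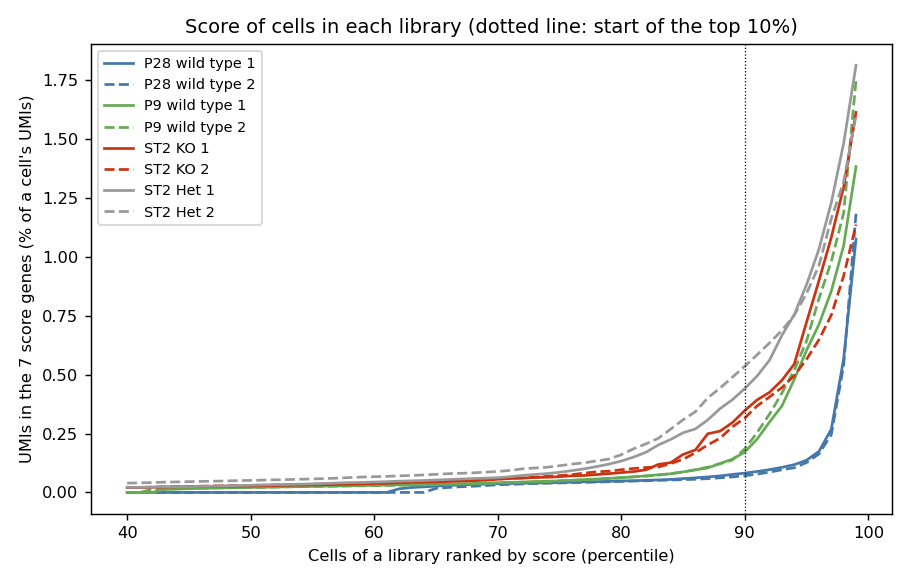
Share of a cell's UMIs in the 7 score genes (%, vertical axis) against the rank of the cell in its library (percentile, horizontal axis), 1 line per library. The dotted line marks the start of the top 10%; the P28 lines stay at 0 for over 61% of cells and rise above 0.3% only for the last 3% of cells, while the ST2 Het lines cross the dotted line at 0.443% and 0.537%.

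The threshold fell at very different shares. The lowest cell inside and the highest cell outside had 0.0822% and 0.0822% in P28 library 1, 0.0712% and 0.0711% in P28 library 2, 0.175% and 0.172% in P9 wild-type library 1, and 0.186% and 0.184% in P9 wild-type library 2. They had 0.353% and 0.345% in ST2 KO library 1, 0.317% and 0.315% in ST2 KO library 2, 0.443% and 0.441% in ST2 Het library 1, and 0.537% and 0.535% in ST2 Het library 2. At P28 the median chosen cell held 3 score UMIs in both libraries, against medians of 24 to 56.5 in the 6 P9 libraries. Of the P28 cells, 61.6% and 64.2% held no score UMI, so that all P28 low-score cells were at 0.

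The label describes P28 cells less well than P9 cells. At least 4 of the 7 genes were detected in 25.1% and 25.5% of chosen P28 cells, against 86.2% to 97.6% in the 6 P9 libraries. A single score gene carried the cell into the group in 32.4% and 40.8% of chosen P28 cells, against at most 1.24% at P9. With 1 fixed limit of 0.3% of UMIs in every library, a limit chosen after the data were seen, 2.78% and 2.86% of eligible cells passed at P28, 8.00% and 8.40% in P9 wild type, 10.96% and 10.55% in ST2 KO and 13.2% and 15.3% in ST2 Het. After each cell was thinned to 1000 UMIs, at least 3 score UMIs were found in 3.40% (95% exact interval 2.76 to 4.13) and 3.24% (2.62 to 3.95) of P28 cells and in 8.83% (7.77 to 9.98) and 8.88% (7.74 to 10.1) of P9 wild-type cells. The same held for 11.9% (9.50 to 14.6) and 11.2% (9.08 to 13.5) of ST2 KO cells and 15.5% (13.5 to 17.6) and 17.03% (14.98 to 19.2) of ST2 Het cells. These intervals cover counting error only, and the thinned values left out 18 and 30 P28 cells, 8 cells of 1 P9 wild-type library and 4 of 1 ST2 Het library with fewer UMIs.

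Fos and Jun carried most of the score. Levels are UMIs scaled to a fixed library total (CPM) of the summed cells of a library. Fos had 1103 to 3625 CPM in immediate-early-high cells, with a median over the 8 libraries of 2541, and 33.1% of all score UMIs at the median. Jun had 1591 to 3090 CPM, with a median of 1938 and 27.8% of score UMIs. Egr1 followed with a median of 1011 CPM, Dusp1 with 673, Ier2 with 662, Fosb with 403 and Atf3 with 342. In low-score cells the medians were 8.10 CPM for Fos, 36.9 for Jun, 6.53 for Egr1, 4.04 for Dusp1, 9.10 for Ier2, 0.600 for Fosb and 2.76 for Atf3. Leaving 1 gene out of the score kept between 78.6% of the chosen cells, without Jun, and 98.5%, without Fosb.

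**Figure D2:**
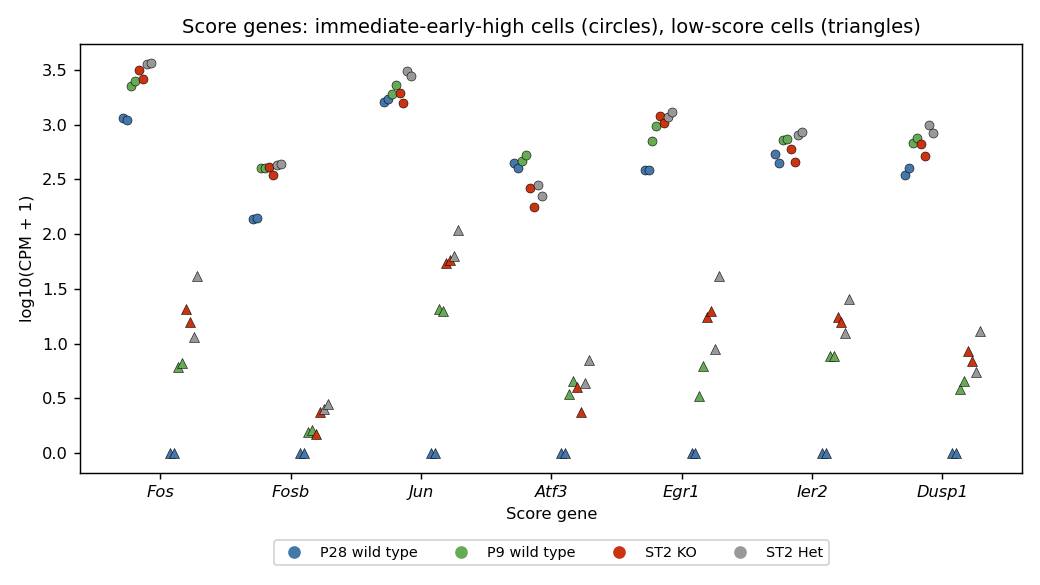
Level of each score gene (log10 of CPM plus 1, vertical axis) in immediate-early-high cells (circles) and low-score cells (triangles) of the 8 libraries, coloured by group. Circles lie above triangles for every gene because the genes chose the cells. For each of the 7 genes the circles of the P28 libraries lie below those of the P9 wild-type libraries, least clearly for Atf3.

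The chosen cells were microglia by their markers. All 13 listed microglial markers were detected in every library, with a summed 36523 to 53125 CPM in immediate-early-high cells and 41355 to 59392 CPM in low-score cells. Neuron markers summed to at most 11.9 CPM in the chosen cells and erythroid markers to at most 53.3 CPM. Border-macrophage markers outside the exclusion rule summed to 2649 to 18879 CPM in chosen cells against 1610 to 6433 CPM in low-score cells, higher in 8 of 8 libraries. Apoe, which microglia also express, made up 78.7% to 96.9% of this sum in the chosen cells, and without it the list held 404 to 628 CPM against 486 to 636 CPM. Endothelial markers reached 883 CPM in chosen cells and 798 CPM in low-score cells, of which the widely expressed gene Bsg made up at least 83.5% in every library. Neutrophil markers summed to 5710 and 2359 CPM in the chosen cells of the P28 libraries, against 97.0 and 64.7 CPM in their low-score cells, and monocyte markers to 901 and 704 CPM, against 26.4 and 53.6. At P9 neutrophil markers summed to 430 CPM in the chosen cells of the second wild-type library, against 8.32 CPM in its low-score cells, and to at most 14.7 CPM in the chosen cells of the other 5 libraries. Cells with at least 5 UMIs of the monocyte, neutrophil and lymphocyte marker lists, or with no UMI of P2ry12, Tmem119, Siglech and Sall1, called blood-marker cells below, made up 6.27% and 4.42% of chosen P28 cells, against 0.278% and 0.205% of P28 low-score cells, and at most 1.59% of chosen cells at P9. Counts over the blood, interferon and antigen presentation lists are given with and without them. A fall in a summed level can come from fewer cells or from less RNA in each cell, and summed profiles do not separate these. Of the barcode sequences, 137 occurred in 2 libraries, and 23 chosen cells carried one of them.

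Immediate-early-high cells also held more UMIs. UMIs per cell are the denominator of the share that ranked the cells. The tests of UMIs and genes per cell are therefore not independent of the ranking, and its part in them was not tested. The median number of UMIs per cell was higher than in low-score cells in 8 of 8 libraries, with a median over libraries of 5183 against 4456, and so was the number of genes, with 2027 against 1780 (exact sign-flip permutation test over 8 libraries, two-sided, p = 0.00781 for each, the smallest that 8 libraries allow, and 0.0143 adjusted over 11 measures). The mitochondrial share, which also entered the cell filter, was lower in 7 of 8 libraries, with a median of 1.96% against 3.11% (exact p = 0.0234, adjusted 0.0322). The P28 libraries were close, at 1.71% and 1.80% in immediate-early-high cells against 1.73% and 1.69% in low-score cells. In the P9 libraries it was 1.85% to 2.51%, against 3.06% to 3.23%. The share of dividing cells, those with 3 or more cell-cycle UMIs of 1000, had a median of 19.5% in immediate-early-high cells and 25.2% in low-score cells, a difference that did not pass (exact p = 0.172, adjusted 0.210). Its sign differed between groups. In ST2 KO libraries it was 16.7% and 19.8% in immediate-early-high cells, against 31.1% and 26.8% in low-score cells. In ST2 Het libraries it was 26.2% and 29.4%, against 22.1% and 23.6%, and in P9 wild type it was 19.2% and 20.6%, against 29.2% and 30.8%.

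Across genes outside the score, the state was broad and its rises were larger than its falls. UMIs were summed per library over each set of cells, and edgeR's quasi-likelihood test with the library as a block called 1158 of 10044 genes higher, which is 11.5%, and 1547 lower, which is 15.4%, at an adjusted p under 0.05. Without dividing cells the counts were 548 higher and 533 lower, and with DESeq2 897 and 937. Without P28 library 1 they were 1423 and 1393 and without P28 library 2 1428 and 1413, so that rises outnumbered falls. Of the genes called with all cells, 335 rose at least 2-fold and 62 fell at least 2-fold. The 27 genes used to choose cells were taken out beforehand. The cells were ranked and compared in the same libraries, so these tests say how far other genes moved together with the score in these cells. Log2 differences below are immediate-early-high minus low-score cells, each with its standard error.

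Other immediate early genes made up the clearest group. Of 47 listed genes 38 were tested, and 36 rose and 0 fell, with a median log2 difference of 1.92, against -0.03 over all genes tested. Egr2, a zinc finger factor related to Egr1, on chromosome 10 from 67535475 to 67542188, had 89.8 to 139 CPM in immediate-early-high cells and 0.547 to 4.92 CPM in low-score cells. The libraries did not overlap, and the log2 difference was 5.33 ± 0.16 (SE; edgeR adjusted p = 1.6e-16). Klf4 had 234 to 421 CPM in immediate-early-high cells against 8.54 to 17.2 in low-score cells, and Klf2 had 739 to 2513 against 17.6 to 154. Both encode Krüppel-like transcription factors that restrain inflammatory genes in macrophages and endothelium, and they rose by 4.76 ± 0.13 and 4.44 ± 0.14.

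Taken group by group, other immediate early genes rose in all 4. Of the 38 other immediate early genes 30 rose at P28, 32 in P9 wild type, 28 in ST2 KO and 31 in ST2 Het, and 0 fell in any group. Over all 10044 genes 4.34% rose and 1.33% fell at P28, 9.55% and 15% in P9 wild type, 5.29% and 8.02% in ST2 KO, and 9.13% and 12.4% in ST2 Het. Of the 17 NF-kB feedback genes 8 rose at P28, 15 in P9 wild type, 10 in ST2 KO and 11 in ST2 Het, with 0 falls. Of the 24 homeostatic genes 13 fell at P28, 15 in P9 wild type, 13 in ST2 KO and 17 in ST2 Het.

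The remaining AP-1 genes moved in the same way. Junb, on chromosome 8 from 84974484 to 84978718, had 1880 and 1749 CPM in immediate-early-high cells at P28, 1698 and 1905 in P9 wild type, 1589 and 1173 in ST2 KO and 2087 and 2082 in ST2 Het. Its levels in low-score cells were 255 and 253 CPM at P28, 117 and 113 in P9 wild type, 139 and 94.4 in ST2 KO and 125 and 142 in ST2 Het. Every library was higher in the chosen cells, by 3.58 ± 0.13 on the log2 scale (adjusted p = 3.3e-15), and the lowest ST2 KO value stood apart from both ST2 Het values. Jund had 2484 to 3897 CPM against 208 to 420 and rose by 3.46 ± 0.14. Zfp36, which encodes a protein that destabilises cytokine mRNAs, had 394 to 678 CPM against 43.2 to 77.4 and rose by 3.23 ± 0.14. Sertad1, a transcriptional co-regulator, and the long noncoding RNA gene Gm26532 were also among the 14 largest rises, at 4.24 ± 0.19 and 3.64 ± 0.17.

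**Figure D3:**
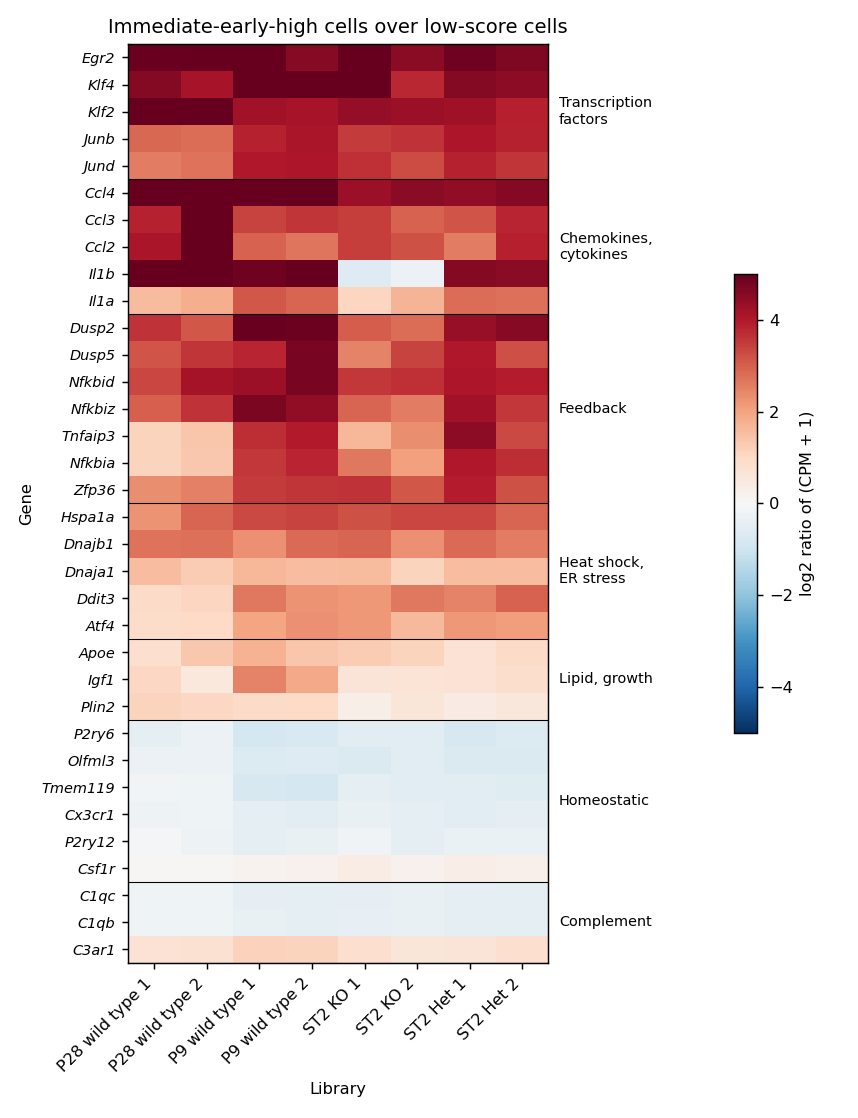
Log2 ratio of CPM plus 1 in immediate-early-high over low-score cells (colour; values past the ends of the bar take its end colour) for 34 genes outside the score (rows, grouped by role) in the 8 libraries (columns). The transcription factors, chemokines and feedback genes are above 0 in nearly every library; Il1b is above 0 in 6 of 8 libraries and not in the ST2 KO libraries, and the homeostatic genes other than Csf1r lie slightly below 0.

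Most of the partner genes examined were highest at the top of the ranking, but heat shock genes and some chemokines were not in every library. When each library was cut into 10 bins by score, Junb was at 295 and 266 CPM in the ninth bin and 1859 and 1712 CPM in the tenth at P28, and at 249 and 277 against 1657 and 1885 in P9 wild type. In ST2 KO libraries it was at 544 and 393 CPM in the ninth bin and 1681 and 1246 in the tenth, and in ST2 Het libraries at 775 and 971 against 2214 and 2254. In the ninth bin the score was 0.187% and 0.173% in ST2 KO, against 0.265% and 0.332% in ST2 Het. Ccl4 was at 889 and 642 CPM in the ninth ST2 Het bin, close to the 707 and 894 CPM of the tenth, and Ccl3 at 947 CPM in the ninth bin of the first ST2 Het library, against 558 CPM in the tenth. Hspa1a, the inducible chaperone, was highest in the ninth bin in 3 of the 4 ST2 libraries. It was at 775 and 485 CPM in the ninth bin and 359 and 611 in the tenth in ST2 KO, and at 664 and 719 in the ninth and 514 and 384 in the tenth in ST2 Het. Cx3cr1, the fractalkine receptor of homeostatic microglia, had its lowest value of the 10 bins in the tenth in each of the 8 libraries.

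**Figure D4:**
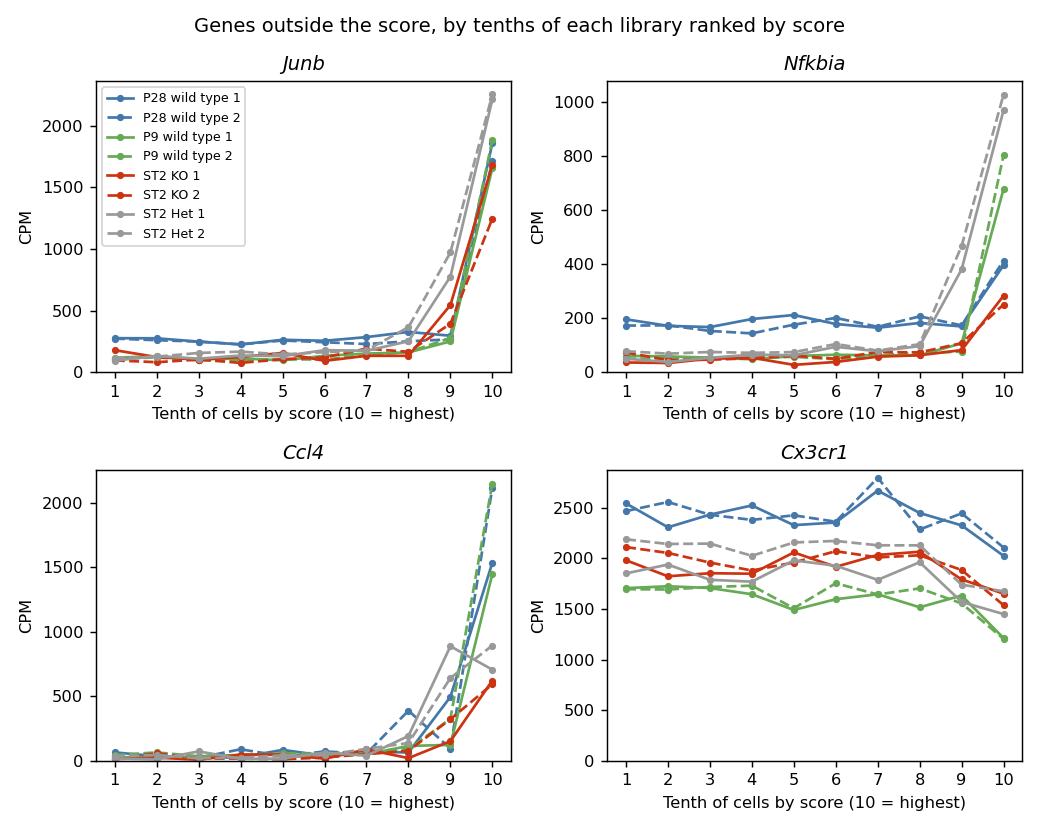
Levels of 4 genes outside the score (CPM, vertical axis) over 10 equal bins of cells ranked by score (horizontal axis, 10 highest), 1 line per library. Junb, Nfkbia and Ccl4 are highest in bin 10, except Ccl4 in the first ST2 Het library, where bin 9 reaches 889 CPM, and Cx3cr1 is lowest there; at P28 most cells below bin 7 share a score of 0, so their order among bins carries no information.

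Chemokines and cytokines rose with the state. Of 24 listed genes 19 were tested, and 13 rose and 0 fell, with a median of 1.72. Ccl4, Ccl3 and Ccl2 encode chemokines that draw monocytes and lymphocytes. Ccl4, on chromosome 11 from 83662584 to 83664683, had 1556 and 2164 CPM in immediate-early-high cells at P28, 1489 and 2174 in P9 wild type, 589 and 559 in ST2 KO and 658 and 826 in ST2 Het, and 23.6 to 54.2 CPM in low-score cells. The libraries did not overlap and the log2 difference was 4.97 ± 0.12 (adjusted p = 1.7e-17). Ccl3 had 436 to 1132 CPM in immediate-early-high cells against 26.1 to 94.0, a rise of 3.69 ± 0.16, and Ccl2 had 178 to 479 against 12.1 to 56.0, a rise of 3.47 ± 0.19. Per cell thinned to 1000 UMIs, the chemokine and cytokine list held a median of 4.65 UMIs in immediate-early-high cells and 1.56 in low-score cells, higher in 8 of 8 libraries (exact p = 0.00781, adjusted 0.0143).

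Il1b, the gene of interleukin-1 beta on chromosome 2, was at or near 0 in the chosen cells of one group. Immediate-early-high cells had 128 and 232 CPM at P28, 108 and 125 in P9 wild type, 0 and 1.80 in ST2 KO and 87.5 and 58.6 in ST2 Het. Low-score cells had 0.547 to 3.94 CPM. It was higher in 6 of 8 libraries, and the ranges overlapped through the ST2 KO libraries (log2 difference 5.26 ± 0.23, adjusted p = 1.1e-13).

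Feedback genes of these responses were raised alongside them. Of 17 tested genes of NF-kB feedback 14 rose and 0 fell, with a median of 1.18, and of 11 tested phosphatases and feedback inhibitors of mitogen-activated protein kinases 7 rose and 0 fell. Nfkbid and Nfkbiz, which encode atypical members of the IkB family of NF-kB regulators, rose by 4.15 ± 0.12 and 3.94 ± 0.17. Tnfaip3, which encodes the ubiquitin-editing enzyme A20, had 26.4 to 125 CPM in immediate-early-high cells against 4.59 to 11.6 and rose by 3.12 ± 0.28. Zc3h12a, which encodes an RNase that degrades cytokine mRNAs, rose by 2.78 ± 0.20. Dusp2 and Dusp5, phosphatases of the same family as Dusp1, rose by 4.47 ± 0.19 and 4.62 ± 0.30. Spry1, an inhibitor of receptor tyrosine kinase signalling, rose by 2.21 ± 0.17. All 7 of these genes were higher in 8 of 8 libraries. They were named for the smallest p in their lists, so this describes these genes and not the lists.

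Heat shock and unfolded protein genes rose too. Of 17 tested heat shock genes 14 rose and 0 fell, with a median of 0.85. Hspa1a, the inducible chaperone HSP70, had 247 and 502 CPM in immediate-early-high cells at P28, 121 and 124 in P9 wild type, 340 and 575 in ST2 KO and 486 and 355 in ST2 Het, against 11.02 to 65.2 CPM in low-score cells. It rose by 3.10 ± 0.11 (adjusted p = 3.0e-15). Dnajb1 and Dnaja1, co-chaperones of HSP70, rose by 2.66 ± 0.08 and 1.49 ± 0.07. Over the thinned cells the list held a median of 10.5 UMIs per 1000 in immediate-early-high cells and 5.17 in low-score cells, higher in 8 of 8 libraries (exact p = 0.00781, adjusted 0.0143). Of 12 tested genes of endoplasmic reticulum stress and ATF4 7 rose and 2 fell. The transcription factors Atf4 and Ddit3 rose by 1.80 ± 0.13 and 2.13 ± 0.19, and the chaperone Hspa5 by 0.70 ± 0.07.

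Smaller groups moved in part. Of 6 tested glucocorticoid targets 4 rose, among them Tsc22d3, an anti-inflammatory leucine zipper gene (2.47 ± 0.16), and Cdkn1a, an inhibitor of cyclin-dependent kinases that other stresses also induce (2.15 ± 0.13). Of 14 tested oxidative stress genes 5 rose, among them Hmox1, heme oxygenase (1.62 ± 0.09), and Ftl1, ferritin light chain (0.60 ± 0.05). Of 12 tested genes of splicing and nuclear RNA 8 rose and 1 fell, led by the nuclear long noncoding RNA Neat1 (2.33 ± 0.09) and the splicing kinase Clk1 (1.51 ± 0.15). Of 18 tested interferon-induced genes 0 rose and 1 fell over all libraries. By group 9 rose and 0 fell at P28, 0 and 3 in P9 wild type, 1 and 2 in ST2 KO and 0 and 6 in ST2 Het. Without blood-marker cells 0 rose and 2 fell over all libraries. By group 1 rose and 0 fell at P28 without them, 0 and 4 in P9 wild type, 1 and 2 in ST2 KO and 0 and 7 in ST2 Het. The 1 fall over all libraries with all cells was Bst2, which encodes tetherin (-0.34 ± 0.08, edgeR adjusted p = 0.0048).

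Homeostatic microglial genes fell, by much less than the immediate early genes rose. Of 24 tested genes 15 fell and 1 rose, with a median of -0.25. P2ry6, a nucleotide receptor that triggers phagocytosis, had 408 to 625 CPM in immediate-early-high cells against 658 to 773 in low-score cells and fell by 0.61 ± 0.07 on the log2 scale with no overlap (adjusted p = 1.3e-06). Olfml3 fell by 0.58 ± 0.06, Tmem119 by 0.52 ± 0.07, Cx3cr1 by 0.42 ± 0.06, Siglech by 0.41 ± 0.06 and P2ry12 by 0.31 ± 0.06, each in 8 of 8 libraries and with overlapping ranges. Csf1r, the receptor of CSF1 and IL-34, was the 1 microglial marker that rose, by 0.21 ± 0.05. UMIs of the homeostatic list per 1000 were lower in 7 of 8 libraries, with a median of 51.5 in immediate-early-high cells and 56.1 in low-score cells (exact p = 0.0156, adjusted 0.0246).

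Genes of the phagocytic state and of complement divided. Of 23 tested phagocytic-state genes 8 rose and 5 fell, with a median of 0.20. By group 6 rose and 0 fell at P28, 13 and 3 in P9 wild type, 3 and 7 in ST2 KO and 2 and 8 in ST2 Het. Apoe, the main lipid carrier of the brain, had 2174 and 2666 CPM in immediate-early-high cells at P28, 19460 and 17290 in P9 wild type, 9162 and 7892 in ST2 KO and 7349 and 7685 in ST2 Het. In low-score cells it had 1209 and 1041 CPM at P28, 5806 and 6575 in P9 wild type, 3806 and 3656 in ST2 KO and 4476 and 4000 in ST2 Het. Every library was higher in the chosen cells, by 1.17 ± 0.08 (adjusted p = 5.9e-10). Plin2, which coats lipid droplets, rose by 0.77 ± 0.09. Igf1, a growth factor, rose by 1.63 ± 0.20 and had 154 and 125 CPM in immediate-early-high cells of P9 wild type, against 26.5 and 32.8 in their low-score cells, and 3.94 to 36.2 CPM in the chosen cells of the other 6 libraries. Of 15 tested complement and opsonin genes 2 rose and 5 fell. C1qb and C1qc, subunits of the complement initiator C1q, fell by 0.38 ± 0.05 and 0.40 ± 0.05, and C3ar1, the receptor of the complement fragment C3a, rose by 0.85 ± 0.08.

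The largest falls among well-measured genes were modest. By the fixed rule of a mean of at least 50 CPM and a fall in all 8 libraries, the 10 leading genes fell by 0.69 to 0.85 on the log2 scale. They were Gm6483, Serpinf1, Hmha1, Sfxn1, Tnni2, H2-DMa, Tia1, Ppp1r14b, Tyms and Dpm3. Serpinf1, which encodes the secreted protein PEDF, had 76.9 to 104 CPM in immediate-early-high cells against 114 to 172, and Tia1, an RNA-binding protein of stress granules, had 84.5 to 127 against 146 to 184. Neither overlapped. Tyms, thymidylate synthase of DNA replication, fell by 1.34 in ST2 KO and 0.51 in ST2 Het libraries, each past the threshold.

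Cell-cycle genes showed no common direction. Of 32 tested genes 3 rose and 4 fell over all libraries, while within ST2 KO 3 rose and 5 fell and within ST2 Het 15 rose and 1 fell. In P9 wild type 1 rose and 11 fell, and at P28 0 did either. Mki67, a proliferation marker, had 47.5 and 53.9 CPM in immediate-early-high cells of ST2 KO, against 99.6 and 87.5 in their low-score cells. In ST2 Het it had 52.7 and 72.3 CPM in immediate-early-high cells, against 70.6 and 68.8. Aurka, a mitotic kinase, rose by 1.30 in ST2 KO and 1.83 in ST2 Het.

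Markers of blood leukocytes were called higher in the wild-type libraries. Of 7 tested monocyte markers 7 rose, and of 8 tested neutrophil markers 7 rose. By group 7 and 7 rose at P28, 3 and 3 in P9 wild type, and 0 and 0 in ST2 KO and in ST2 Het. In ST2 Het 1 monocyte and 3 neutrophil markers fell, and in the other groups 0 and 0. Neutrophil markers summed to 281 CPM in the low-score cells of ST2 Het library 1, against 6.59 CPM in its chosen cells. Ngp, a granule protein of neutrophil precursors, had 337 UMIs in 8 chosen cells of P28 library 1, of which 264 lay in 1 cell, and 203 UMIs in 4 cells of library 2, of which 200 lay in 1 cell. Chosen P9 wild-type cells held 0 UMIs of Ngp. Blood markers could pass the low-count filter through the P28 cells alone, so the counts of markers that rose are a description. Without blood-marker cells, 1 monocyte marker was tested, which fell, and 0 of 5 neutrophil markers rose; without both P28 libraries 0 of 3 and 0 of 4 rose. Of 11 tested antigen presentation genes 7 rose and 1 fell, and without blood-marker cells 4 of 9 rose. By group 6 rose and 0 fell at P28, 5 and 1 in P9 wild type, and 0 and 1 in ST2 KO and in ST2 Het. H2-Aa and H2-Eb1, chains of MHC class II, reached 622 and 466 CPM in chosen cells of the second P28 library and 86.8 and 53.2 CPM in those of the second P9 wild-type library, and had medians of 0 and 0.446 CPM over the chosen cells of all 8 libraries. The 88 H2-Aa UMIs in chosen cells of that P9 wild-type library all lay in 1 cell, and the 474 of the second P28 library in 12 cells.

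The remaining lists had calls in both directions or held few tested genes. Over all genes tested 11.5% rose and 15.4% fell. Of 15 tested genes of energy metabolism and mTOR signalling 2 rose and 3 fell, and of 8 tested border-macrophage markers 3 and 3. Of 4 tested endothelial markers 1 rose and 1 fell, and the single tested lymphocyte and mural markers, Cd79b and Acta2, fell. No tested astrocyte, oligodendrocyte, neuron or erythroid marker passed, 2, 3, 1 and 1 being tested.

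Whether the state differed with age was tested as the P28 minus P9 wild-type difference of the log2 differences. It passed for 537 of 10044 genes in the positive direction, 5.35%, and 224 in the negative direction, 2.23%. Of the 38 other immediate early genes 3 were positive and 13 negative, of the 17 NF-kB feedback genes 0 and 7, and of the 19 chemokine and cytokine genes 5 and 5. The chosen P28 cells carried a lower score, and beyond the values given with 1 fixed share for all libraries its part in these differences was not tested.

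Nfkbia, the gene of the NF-kB inhibitor IkB-alpha whose promoter is printed above, had the smallest p among negative differences. Immediate-early-high cells had 400 and 422 CPM at P28 and 695 and 812 in P9 wild type. Low-score cells had 187 and 164 CPM at P28 and 59.8 and 57.2 in P9 wild type. The rise was 1.23 at P28 and 3.68 at P9, a difference of -2.45 ± 0.12 (adjusted p = 1.3e-27), and -1.86 with the fixed share. Both a higher level in low-score cells and a lower one in chosen cells at P28 entered that difference.

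A higher level in P28 low-score cells recurred among the negative genes. Pnrc1, a nuclear receptor coactivator, had 292 and 280 CPM in low-score cells at P28 against 102 and 99.7 at P9, with an age difference of -1.99 ± 0.11. Jund had 420 and 418 CPM in low-score cells at P28 against 208 and 229 at P9, with -1.36 ± 0.08. With the fixed share these differences were -1.41 for Pnrc1 and -0.43 for Jund, each still past the threshold. Rsrp1, an arginine- and serine-rich protein gene, was lower in the chosen cells at P28 (1207 and 1198 CPM against 1462 and 1495 in low-score cells) and higher at P9 (1207 and 1401 against 622 and 584), with an age difference of -1.41 ± 0.08.

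Positive age differences included genes of the state and genes of blood cells. Klf2 rose by 5.51 at P28 and 4.17 at P9, a difference of 1.34 ± 0.15 (adjusted p = 5.8e-11). Its level in the chosen cells was nevertheless lower at P28, 927 and 739 CPM against 2011 and 1769 at P9, and its low-score levels were 17.6 and 18.8 at P28 against 109 and 100.4 at P9. Ccl2 and Ccl3 had age differences of 1.93 ± 0.22 and 1.13 ± 0.17, again with lower levels in P28 low-score cells. The 5 positive genes with the smallest p, Lyz2, Ifi27l2a, Lsp1, Ifitm2 and Fxyd5, are expressed by blood myeloid cells. Lyz2, lysozyme, had a difference of 1.78 ± 0.09, and -0.21 without blood-marker cells (adjusted p = 0.38). Without those cells Ifi27l2a and Ifitm2 no longer passed, at 0.16 (adjusted p = 0.86) and 0.52 (adjusted p = 0.64), and Lsp1 and Fxyd5 passed with 0.88 and 2.30 in place of 2.33 and 3.95. Without those cells 246 genes had a positive call, and leaving out 1 of the 4 wild-type libraries left 167 to 233.

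Among the chosen cells alone, P28 and P9 wild type differed in 915 of 8134 genes that were higher, 11.2%, and 1025 that were lower, 12.6%. The chosen P28 cells had the lower score, and with the fixed share the counts were 483 and 538. Without dividing cells they were 437 and 429, with DESeq2 389 and 521, and without blood-marker cells 957 and 1106. The leading genes include homeostatic genes and cell-cycle genes. Cst3, cystatin C, had 69560 and 68080 CPM at P28 against 17080 and 16710 at P9 (2.03 ± 0.05), Tmem119 had 2978 and 2889 against 767 and 772 (1.93 ± 0.09), and Selplg had 3593 and 3405 against 654 and 742 (2.33 ± 0.10). Apoe was lower at P28, 2174 and 2666 against 19460 and 17290 (-2.92 ± 0.09), and so were the cathepsin gene Ctsb (-1.28 ± 0.07) and the microtubule regulator Stmn1 (-3.68 ± 0.15). Of 31 tested cell-cycle genes 31 were lower at P28, and of 24 homeostatic genes 20 were higher and 1 lower. Of 7 tested monocyte and 7 tested neutrophil markers 7 and 7 were higher at P28, where the blood-marker cells lie, and so were 10 of 13 interferon-induced genes. Ngp and Camp, both neutrophil markers, had 0 UMIs in the chosen cells of every P9 library. They could pass the low-count filter only through P28, which set their direction beforehand, so the marker counts are a description. Without blood-marker cells 0 monocyte markers and 1 neutrophil marker were tested, and that 1 was higher, while 5 of 11 interferon-induced genes were higher and 1 lower. Within the state's own lists, 5 of 36 other immediate early genes were higher at P28 and 11 lower, and 1 of 16 NF-kB feedback genes was higher and 6 lower.

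Gpx3, a secreted glutathione peroxidase, had 3 UMIs in chosen P28 cells and 509 in chosen P9 wild-type cells, a ratio of rates of 0.00836 (95% exact interval 0.00172 to 0.0246, counting error only). Junb, by contrast, had a level difference of 0.01 ± 0.10 in the chosen cells that did not pass (edgeR adjusted p = 0.96).

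The knockout label could not be checked by the target gene. Il1rl1 had 31 and 28 UMIs over eligible cells of the ST2 KO libraries and 37 and 46 in the ST2 Het libraries, or 7.48 and 6.06 CPM against 5.44 and 6.67 CPM. The deleted part of the gene is not given in the sources used here, and 3′ counts outside it check nothing. The genotypes also differed in a second way. Chosen cells without an Xist UMI made up 28.8% and 24.7% in ST2 KO and 0.794% and 0% in ST2 Het, and Y-linked genes had 28 and 37 UMIs against 2 and 2, so the makeup of the libraries by sex and the genotype cannot be told apart. A count of 0 of 126 cells allows a share of up to 2.38%.

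Between genotypes few genes differed in how far they moved with the state, and several of these were inflammatory or feedback genes. The ST2 KO minus ST2 Het difference of the log2 differences passed for 4 of 10044 genes in the positive direction, 0.0398%, and 21 in the negative direction, 0.209%. It passed for 0 of 38 other immediate early genes in either direction, 0 of 17 heat shock genes, 0 and 4 of 19 chemokine and cytokine genes and 0 and 2 of 17 NF-kB feedback genes. On simulated data this test recovered 31% of genes changed 2-fold. The chosen ST2 KO cells carried a lower score, and with the fixed share 8 genes passed, 7 of them among these 25. The counts also moved with single libraries. Without ST2 KO library 1, 1 and 7 genes passed, without ST2 Het library 2, 4 and 13, and without P9 wild-type library 1, which enters through the shared estimates, 1 and 9.

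Nfkbia had the smallest p again. Immediate-early-high cells had 267 and 235 CPM in ST2 KO and 914 and 948 in ST2 Het, and low-score cells had 42.1 and 56.0 in ST2 KO and 56.5 and 72.9 in ST2 Het. The chosen cells did not overlap between genotypes, while the low-score cells were close. The rise was 2.33 in ST2 KO and 3.85 in ST2 Het, a difference of -1.51 ± 0.18 (adjusted p = 4.8e-08). With the fixed share for all libraries the difference was -1.28 (adjusted p = 1.0e-06), and over the fits tried it ranged from -1.76 to -0.48, with a call lost only when cells with 3 or more cell-cycle UMIs were left out (adjusted p = 0.96), which kept 26.9% to 39.6% of P9 cells. With cell-cycle UMIs counted in 1000 UMIs, which kept 70.0% to 76.7% of P9 cells, it was -1.05 (adjusted p = 0.017).

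Cd83, an activation marker of antigen-presenting cells, had 99.6 and 160 CPM in immediate-early-high cells of ST2 KO against 356 and 269 in ST2 Het, with 66.2 and 70.8 against 66.6 and 57.8 in low-score cells. Its difference was -1.38 ± 0.20 (adjusted p = 2.0e-06), and -1.27 with depth matched between the sets of cells, where it no longer passed (adjusted p = 0.11). Il1b had 0 and 1 UMI in chosen ST2 KO cells and 68 and 47 UMIs, in 19 and 16 cells, in chosen ST2 Het cells, a ratio of rates of 0.0136 (95% exact interval 0.000342 to 0.0774, counting error only). Il1a, the other interleukin-1 gene, had 45.3 and 62.9 CPM in ST2 KO against 197 and 120 in ST2 Het, a difference in rise of -1.33 ± 0.30 (adjusted p = 0.031). Tnfaip3 had -1.84 ± 0.44 (adjusted p = 0.040) and the fatty acid receptor gene Gpr84 -0.72 ± 0.17 (adjusted p = 0.034).

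The other named genes were Marcksl1, Hmgb2 and 2810417H13Rik on the negative side and Apoe, Serpine2 and Ctsd on the positive side. Marcksl1, an actin regulator, rose by 1.17 in ST2 KO and 1.99 in ST2 Het. Hmgb2 and 2810417H13Rik, a chromatin protein and a replication factor gene, go with cell division, and 5 of 32 cell-cycle genes had negative differences. The thinned share of dividing chosen cells was 16.7% and 19.8% in ST2 KO and 26.2% and 29.4% in ST2 Het. Apoe had a difference of 0.36 ± 0.08, Serpine2, a protease inhibitor, 0.39 ± 0.09, and the lysosomal protease gene Ctsd 0.24 ± 0.06. Without dividing cells, where 1 of the 25 calls remained, 4 of these differences changed sign, to -0.29 for Apoe, -0.14 for Serpine2, -0.12 for Ctsd and 0.90 for 2810417H13Rik. Without cells dividing by 3 of 1000 UMIs 0 genes passed in the positive and 3 in the negative direction, Nfkbia and Cd83 among them.

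**Figure D5:**
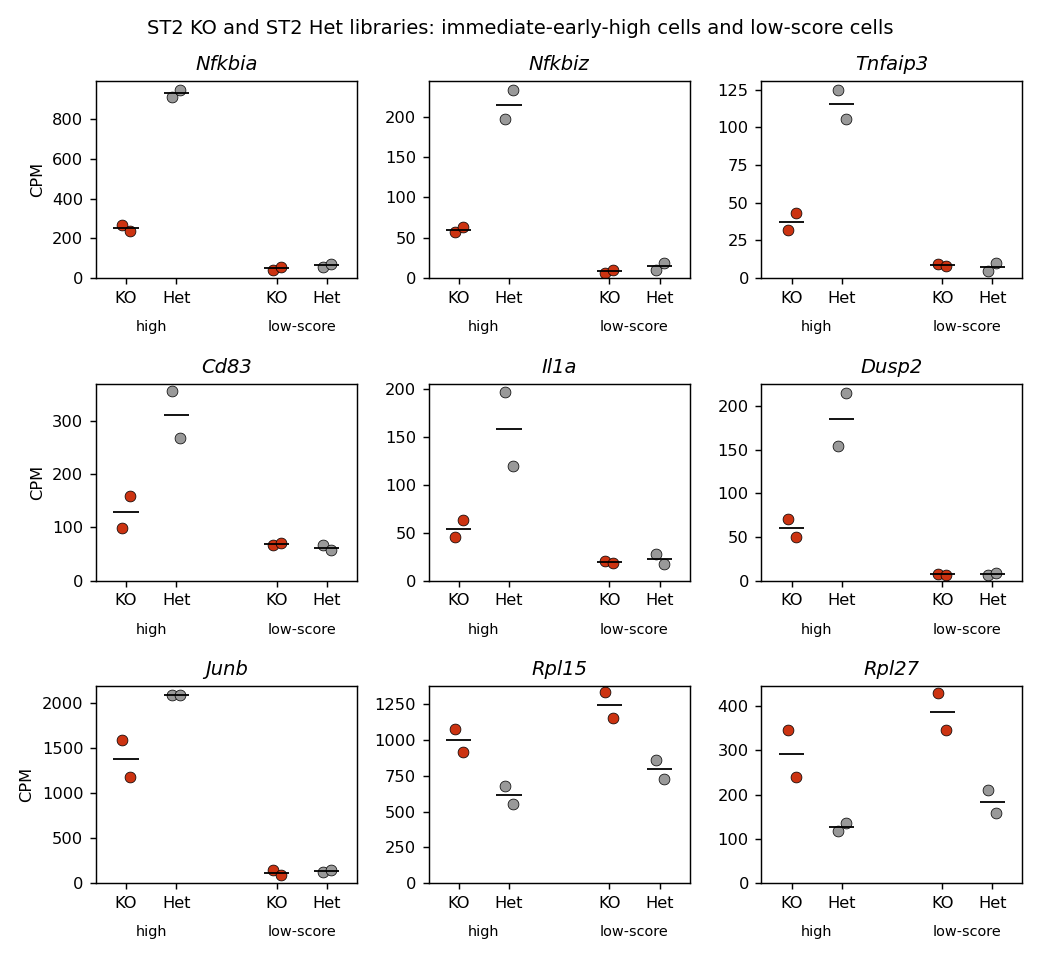
Levels (CPM, vertical axes starting at 0) of 9 genes in ST2 KO (red) and ST2 Het (grey) libraries, for immediate-early-high cells on the left and low-score cells on the right of each panel; points are libraries and bars their mean. Nfkbia, Nfkbiz, Tnfaip3, Cd83, Il1a, Dusp2 and Junb are lower in ST2 KO in the immediate-early-high cells, while Rpl15 and Rpl27 are higher in ST2 KO in both sets of cells.

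Compared directly in the chosen cells, 19 of 8134 genes were higher in ST2 KO, 0.234%, and 19 were lower, 0.234%. Of 19 chemokine and cytokine genes 5 were lower and 0 higher, of 16 NF-kB feedback genes 4 and 0, and of 36 other immediate early genes 3 and 0. The chosen ST2 KO cells carried a lower score, 0.823% and 0.672% of UMIs against 1.03% and 1.01% in ST2 Het. With the fixed share 27 of these 38 genes passed. Beyond that, the part of the score in these differences was not tested. Nfkbia had a log2 difference of -1.89 ± 0.12 (adjusted p = 7.3e-10). Nfkbiz had 56.6 and 62.9 CPM in ST2 KO against 197 and 233 in ST2 Het, a log2 difference of -1.83 ± 0.18 (adjusted p = 1.8e-06). Dusp2 had 70.2 and 50.3 against 154 and 216, a difference of -1.64 ± 0.23 (adjusted p = 0.00046). Tnfaip3 had 31.7 and 43.1 against 125 and 106 (-1.59 ± 0.23), and Junb 1589 and 1173 against 2087 and 2082 (-0.59 ± 0.11, adjusted p = 0.0052). In each of these genes both ST2 KO libraries lay below both ST2 Het libraries. Without cells holding 3 or more cell-cycle UMIs 0 genes passed in either direction, without ST2 Het library 2, 0 were higher and 12 lower, and without ST2 KO library 1, 5 were higher.

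Klf2, Egr2, Ccl2, Ccl3 and Hspa1a did not pass between genotypes. Klf2 had 2513 and 2227 CPM in ST2 KO against 2190 and 2305 in ST2 Het, a log2 difference of 0.08 ± 0.10 (adjusted p = 0.93), and Egr2 had 122 and 89.8 against 93.9 and 113, a difference of 0.02 ± 0.19 (adjusted p = 1.0). Ccl2 and Ccl3 had differences of 0.05 ± 0.27 and -0.31 ± 0.19. Hspa1a had 340 and 575 against 486 and 355, and 0.14 ± 0.22.

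Rpl27, Gm12166 and Rpl15 were higher in ST2 KO in the chosen cells and in the low-score cells. Xist, the RNA that silences an X chromosome in female cells, was lower, at 955 and 1062 CPM in ST2 KO against 1680 and 1846 in ST2 Het (-0.80 ± 0.09) in the chosen cells. Rpl27 was higher in chosen ST2 KO cells by 1.20 ± 0.21, Gm12166 by 1.11 ± 0.19, and Rpl15, like Rpl27 a ribosomal protein gene, by 0.70 ± 0.12. In low-score cells Rpl27 had 430 and 345.5 CPM in ST2 KO against 209.7 and 158.2 in ST2 Het, Gm12166 had 231 and 234.5 against 133.9 and 120.0, and Rpl15 had 1340 and 1154 against 863 and 729. The difference in rise between genotypes was 0.05 ± 0.09 for Rpl15 and 0.11 ± 0.16 for Rpl27, neither past the threshold. Ribosomal protein genes have many near-identical pseudogenes, so their counts are uncertain.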

How the data were processed

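Cells were profiled with 3′ single-cell RNA sequencing (10x). The deposited values are UMI counts per gene and cell, made with Cell Ranger on mm10 per the submitters' processing notes; the version is not given in the sources used here. Cells were taken from the deposited matrix as described above, and the labels' names in the barcodes gave the library, with unnumbered names taken as replicate 1; the barcode names of the first ST2 KO and ST2 Het libraries carry the word redo, which the labels do not. The members and gene lists were chosen with earlier results of these data known. The 27 genes of the rule were taken out of 27998, counts were summed per library and set of cells, and edgeR 4.0.16 in R 4.3.3 (TMM, its filter on low counts, quasi-likelihood tests, Benjamini-Hochberg adjustment at 0.05) was run on all 8 libraries. CPM of genes outside the score are TMM-scaled; those of score genes and bins are plain. A 3′ UMI count does not scale with transcript length. The standard error is the log2 difference over the root of its F. Values per library were tested by exact sign flips (256). Totals were 431793 to 1193295 UMIs per library in immediate-early-high cells and 1983600 to 5208822 in low-score cells. No doublet caller was run. On simulated data 90% of genes changed 2-fold were recovered in the comparison of the states. Genes were named by rule: the 14 largest rises and 10 largest falls over 50 CPM with 1 direction in 8 libraries, up to 4 genes per list by p, and the 5 smallest p per direction in other comparisons over 20 CPM; other list members named beside them were chosen after their values were seen. Some genes that the rule names are not reported here. Alternatives were DESeq2 1.42.0, no filter, other cell cuts, thinning to 1000 UMIs, matched depth, no dividing cells and each library left out; leaving out blood-marker cells, a fixed share of 0.3%, dividing cells by 3 of 1000 UMIs and leaving out both P28 libraries were chosen after seeing the data. Gene positions are from GENCODE on GRCm38.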

Additional observations from a re-analysis of the deposited data

Results flagged for a closer look

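The tests of a difference between groups in how far genes moved with the state picked out the following genes by age. P28 minus P9 wild type, the log2 differences were larger at P28 for Lyz2 (1.78), Ifi27l2a (3.02), Lsp1 (2.33), Ifitm2 (3.43) and Fxyd5 (3.95), and without blood-marker cells Lyz2, Ifi27l2a and Ifitm2 no longer passed. They were smaller at P28 for Nfkbia (-2.45), Pnrc1 (-1.99), Rsrp1 (-1.41) and Jund (-1.36), where the lower score of P28 cells moves with the result and its part was not tested beyond the fixed share given above.

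By genotype, ST2 KO minus ST2 Het, 8 genes were picked out. The difference was positive for Apoe (0.36), Serpine2 (0.39) and Ctsd (0.24), and negative for Nfkbia (-1.51), Marcksl1 (-0.82), Cd83 (-1.38), Hmgb2 (-0.76) and 2810417H13Rik (-1.35). Without dividing cells Apoe (-0.29), Serpine2 (-0.14), Ctsd (-0.12) and 2810417H13Rik (0.90) changed sign, and 1 of 25 calls remained. The share of dividing cells, the score and the makeup by sex moved with genotype, and the part of the last was not tested.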

How the results depend on the processing

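Of 2528 values of 128 named genes over the alternatives, 2418 kept direction and side of the threshold, 104 no longer passed and 6 reversed. These were Ngp between the states under the fixed share (-0.19), Lyz2 by age without blood-marker cells (-0.21), and by genotype without dividing cells Apoe (-0.29), Serpine2 (-0.14), Ctsd (-0.12) and 2810417H13Rik (0.90). Counts are higher then lower. With DESeq2 1.42.0, 937 genes were lower between the states; by age the interaction gave 156 and 63 and by genotype 0 and 5, and chosen cells gave 7 and 11 by genotype and 389 and 521 by age. Without dividing cells the same comparisons gave 548 and 533, 246 and 136, 0 and 1, 0 and 0, and 437 and 429, and score shares differed by -0.0754 points (P28 minus P9 wild type) and -0.0285 (ST2 KO minus ST2 Het), against -0.0452 and -0.0535. Without cells dividing by 3 of 1000 UMIs, 945 were lower between the states, 299 higher by age, 0 and 3 by genotype, and 12 lower in chosen cells by genotype. At matched depth 975 were lower between the states, 198 higher by age and 0 and 8 by genotype, and the phagocytic list difference of 3.65 UMIs per 1000 no longer passed (exact permutation, adjusted p = 0.0656). Without a low-count filter the genotype interaction gave 10 higher, and chosen cells 56 and 48. With the top 5% of cells the interactions gave 130 lower by age and 1 and 5 by genotype, and chosen cells 3 and 11 by genotype and 514 and 514 by age. With the top 20% they gave 222 higher by age and 8 and 12 by genotype, and chosen cells 33 lower by genotype and 1494 higher by age. Ranked after thinning, they gave 299 higher by age and 1 and 7 by genotype. Under the fixed share they gave 229 higher by age and 2 and 6 by genotype, and chosen cells 12 lower by genotype and 483 and 538 by age. Without blood-marker cells 246 were higher by age. Leaving out 1 library gave 980 to 1428 higher and 1006 (without P9 wild-type library 1) to 1413 lower between the states, 167 to 575 and 117 to 343 by age, 1 to 7 and 7 to 24 by genotype, and in chosen cells 0 to 38 and 12 to 22 by genotype and 613 to 1040 and 711 to 1053 by age; a lone library was assumed to vary like the other groups. Replicate numbers did not pair libraries, with correlations of deviations of 0.036 (ST2 KO and ST2 Het) and 0.009 (P28 and P9 wild type); with a replicate block 55 and 42 genes passed by genotype. The cause of these moves was not tested.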

Other observations

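Immediate-early-high cells overlapped with the chemokine-rich cells of each library. Of the chosen cells 25.8% to 43.9% were also in the top 10% of their library for the chemokine and cytokine list, with a median of 28.3%, against 4.49% to 7.10% of low-score cells, with a median of 5.71% (higher in 8 of 8 libraries, exact sign-flip permutation p = 0.00781, the smallest possible, adjusted 0.0143). For the interferon list the share in the top 10% was 8.57% in immediate-early-high cells and 10.7% in low-score cells at the median, and did not pass (exact permutation p = 0.211, adjusted 0.232).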
